A study of Mus musculus with 12 samples.

Results

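Murine iPS (induced pluripotent stem) cells obtained with mouse Nanog were set against embryonic stem (ES) cells, 3 arrays against 3, which is 6 of the 12 arrays of the series. The arrays were chosen by their titles, mNanog iPS 1 to 3 and ES1 to ES3, and a probe was tested when its detection p-value was under 0.01 on at least 3 of those 6 arrays. That left 14800 of the 45281 probes, of which 12827 carried a single gene symbol, for 8521 genes. The other 6 arrays hold iPS cells made with human Nanog (hNanog iPS) and Nanog-null neural stem (NS) cells, again 3 each. Their levels are given here only for context, but they share the normalization and the estimate of the spread. The strain of all 4 groups is given as E14Tg2A (129), the name of an ES cell line of that mouse background. The iPS and ES cells grew in N2B27, a serum-free medium, with the cytokine LIF, the GSK3 inhibitor CHIR99021 at 3 µM and the MEK inhibitor PD0325901 at 1 µM. The sources used here do not say how Nanog was delivered, from which cells the iPS lines were made, or whether replicates are separate clones or cultures. The p-values therefore reflect the spread among these arrays alone, which may be technical.

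Nanog is a homeodomain transcription factor of the network, built around Oct4 (Pou5f1) and Sox2, that keeps ES cells able to self-renew and to form all embryonic lineages. Blocking MEK and GSK3 while activating STAT3 through LIF holds mouse ES cells in a naive state, close to the epiblast of the blastocyst. In reprogramming, Nanog helps cells that have begun to lose their old identity reach that state.

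Levels are normalized log2 intensities, and a difference is mNanog iPS minus ES on that scale with its standard error (SE). Adjusted p-values come from limma with the Benjamini-Hochberg method over all 14800 probes, and a change is called below 0.05. The 6 arrays had mean raw signals between 317.5 and 531.3 and detected between 13691 and 15974 probes. Each group held 1 brighter array (470.3 and 531.3) and 2 dimmer ones (317.5 to 332.2), so brightness was balanced between the groups. Over the tested probes, which share arrays and are no independent replicates, Pearson's r was 0.987 to 0.993 between replicates and 0.948 to 0.957 between groups. All 9 ES cell markers checked were detected on every array of both groups. Their summed linear signal was 75339 to 79378 in the mNanog iPS cells, below the 79758 to 83582 of the ES cells. The sum reads Nanog from probe ILMN_2706623 (difference -1.58), the largest difference among the 9, so it describes no common shift.

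Both probes for Nanog passed the test, and they went opposite ways. On probe ILMN_1245732, Nanog (chromosome 6) measured 12.22, 12.17 and 12.54 in the mNanog iPS cells and 11.65, 11.68 and 11.51 in the ES cells. Every iPS array was above every ES array, by 0.69 (SE 0.119, adjusted p = 0.000559). On probe ILMN_2706623, Nanog measured 11.21, 11.49 and 11.67 in the mNanog iPS cells and 13.15, 13.13 and 12.83 in the ES cells. Here every iPS array was below every ES array, by 1.58 on the log2 scale (difference -1.58, SE 0.129, adjusted p = 9.96e-07). The hNanog iPS cells separated the probes further, with 7.22, 7.14 and 6.87 on the first and 11.07, 11.04 and 10.98 on the second. The sources used here do not place either probe on the transcript, so signal from the introduced and the cell's own gene cannot be told apart. With median scaling of the arrays the rise on the first probe missed the threshold (0.61, adjusted p = 0.46).

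The region just upstream of the mouse Nanog gene is shown because it carries the letters through which Oct4 and Sox2 are known to act on this gene. The 150 bases before the RefSeq start (GRCm38.p6, chr6:122707339-122707488, plus strand, 5′ to 3′) are printed with the Oct-Sox element, in capitals. It was found by searching both strands for the octamer letters TTTGCAT, then any 1 base, then the Sox letters ACANTG, so every match also holds the octamer core TTTGCAT.
Nanog: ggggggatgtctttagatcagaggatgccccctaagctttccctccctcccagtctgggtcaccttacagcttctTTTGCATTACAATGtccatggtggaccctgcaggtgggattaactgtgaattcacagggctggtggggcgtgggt
Of 32851 windows of 250 bases before a RefSeq start, 3 (0.00913%) held the full element and 1355 (4.12%) the octamer core. A match describes the letters only.

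Among the classical reprogramming factors, differences were small, and whether they passed the test depended on the probe. Pou5f1, which encodes Oct4, measured 13.13, 13.23 and 13.33 in mNanog iPS and 13.17, 12.76 and 12.96 in ES cells. These ranges overlapped (difference 0.26, SE 0.111, adjusted p = 0.0785), and the difference passed the test without ES replicate 1 (0.37, adjusted p = 0.0229). Sox2, the partner of Oct4, measured 9.65, 9.46 and 9.37 against 9.83, 9.86 and 9.91. All 3 iPS arrays lay below all 3 ES arrays, a small fall (difference -0.37, SE 0.0920, adjusted p = 0.00635), while a dimmer Sox2 probe did not pass (difference -0.28, adjusted p = 0.364). Klf4, a reprogramming factor induced by LIF, measured 10.11, 10.61 and 10.80 against 11.40, 10.97 and 10.73. The groups overlapped, and the difference of -0.53 (SE 0.200, adjusted p = 0.0539) passed the test without mNanog iPS replicate 3 (-0.67, adjusted p = 0.0278) and without ES replicate 3 (-0.68, adjusted p = 0.0273). Dimmer probes passed the test for Pou5f1 (difference 0.29, adjusted p = 0.0238) and, for 1 of its other 2, Klf4 (difference -0.35, adjusted p = 0.0200). Myc, the remaining classical factor, was detected on too few arrays to be tested.

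**Figure D1:**
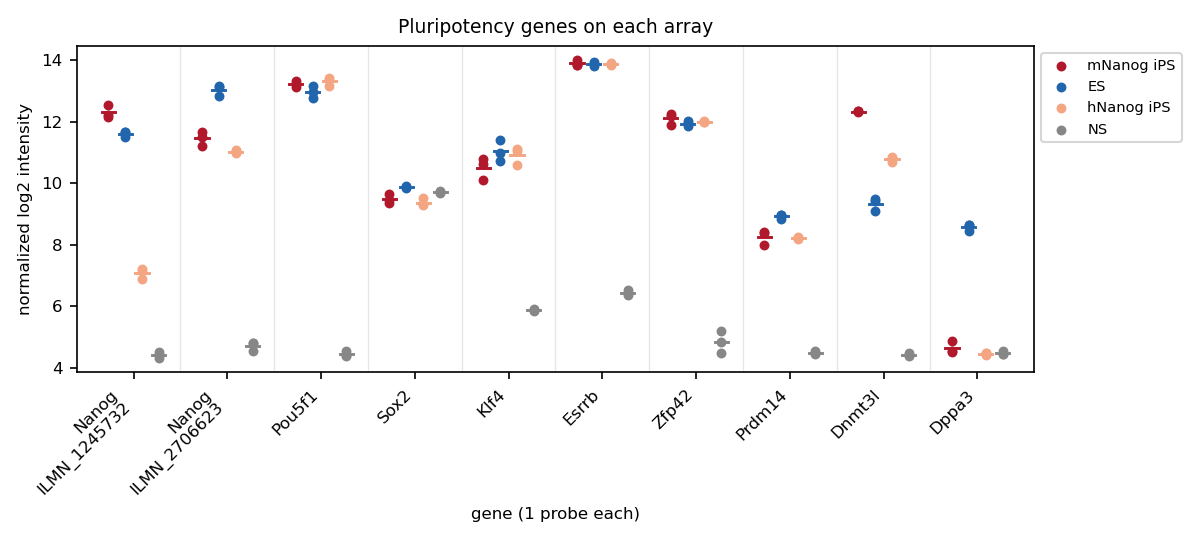
Normalized log2 intensity (y axis) of pluripotency genes (x axis) on each of the 12 arrays; points are arrays, short bars are group means of 3. Nanog sits higher in mNanog iPS than in ES cells on one probe and lower on the other, Pou5f1 overlaps between them, Dnmt3l is higher and Dppa3 is at background in both iPS groups.

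Across the 14800 probes, 5829 (39.4%) were called, 2707 higher (18.3%) and 3122 lower (21.1%) in the mNanog iPS cells. At least 2-fold changes were fewer, 1075 (7.26%), and leaned the other way, with 693 higher (4.68%) and 382 lower (2.58%). At an unadjusted p under 0.05 there were 7043 probes. The 3 and 3 arrays did not overlap for 7351 probes (49.7%). Counted once per gene, by the probe with the highest mean over the 12 arrays, 1668 of 8521 genes (19.6%) were higher and 1890 (22.2%) lower, and the median difference was -0.05. Those shares are the background for every list below, each of which is described by its counts and median alone. For context, 16.7% of probes differed between mNanog and hNanog iPS cells and 31.2% between hNanog iPS and ES cells, comparisons that share arrays with this one. The number of calls depended on the scaling, since median scaling gave 949, of which 63.2% were higher, against 46.4% of the 5829. Of 169 named probes that were called, 103 passed under median scaling too. The 66 that did not differed by at most 1.19.

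**Figure D2:**
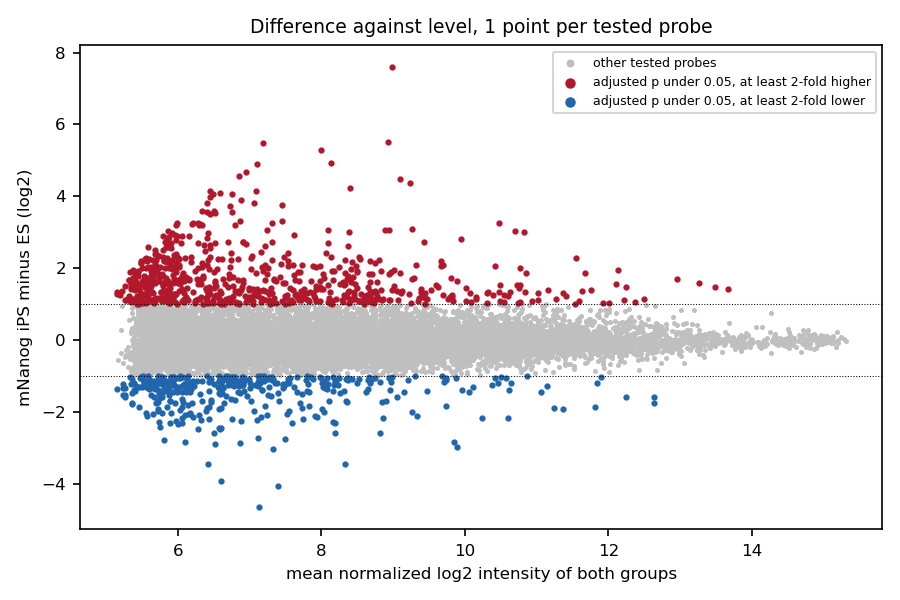
Difference mNanog iPS minus ES (log2, y axis) against the mean normalized log2 intensity of both groups (x axis), 1 point per tested probe, dotted lines at a 2-fold difference. The 693 coloured points above and 382 below passed an adjusted p of 0.05; many of the largest differences are at the dim end, where one group was near background.

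The largest rises with a gene name were mostly in genes that no ES array detected. Serpinf1, which encodes the secreted factor PEDF, measured 10.07, 9.94 and 9.78 in mNanog iPS cells and 4.49, 4.35 and 4.50 in ES cells, where no array detected it. The rise was at least 20.3-fold (difference 5.49, SE 0.116, adjusted p = 8.93e-12), where a bound sets the brighter group's mean against the lowest detected level on the other group's arrays. P2rx7, an ATP-gated ion channel, measured 10.65, 10.72 and 10.58 against 5.25, 5.22 and 5.59, at least 33.4-fold higher (adjusted p = 1.29e-11). Its 4 tested probes all rose, by 1.88 to 5.3, and the largest is given. On that probe P2rx7 was nearly as high in the hNanog iPS cells, at 10.05, 9.85 and 10.10. Serpinf1 was not, at 4.71, 4.75 and 4.52.

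Among the other large rises, Grhl2, an epithelial transcription factor, measured 10.43, 10.46 and 10.69 in mNanog iPS cells and 6.35, 6.25 and 6.25 in ES cells, with 9.39, 9.43 and 9.42 in hNanog iPS cells. Pkd2l1, a cation channel, rose by 4.38 (SE 0.112) and was also high in hNanog iPS cells, at 10.57, 10.46 and 10.49. Trim50, an E3 ubiquitin ligase, measured 9.03, 9.06 and 9.30 against 4.56, 4.61 and 4.54, and 5.56, 5.24 and 4.94 in hNanog iPS cells. Fndc3a rose by at least 13.0-fold (difference 4.68, adjusted p = 4.49e-10). Nefm, a neurofilament subunit of neurons, measured 9.0, 9.30 and 9.20 against 5.47, 4.71 and 4.84. Its 3 tested probes rose by 2.01 to 4.16. The remainder of the 15 (Dcn, Timp2, Timp3, Lox, Loxl1, Bgn and S100a6) belong mostly to the extracellular matrix and are described below, and Xlr4a follows here. Of the 15, 10 were detected on no ES array. By its own test mNanog iPS differed from hNanog iPS cells in all 15, beside 16.7% of all probes. The 15 were chosen for high mNanog iPS levels, so that count is partly set by the choice.

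Xlr4a, from a lymphocyte-regulated gene family on the X chromosome, measured 11.41, 11.30 and 11.28 in mNanog iPS cells and 6.84, 6.93 and 6.79 in ES cells. The groups were far apart (difference 4.48, SE 0.0821, adjusted p = 5.46e-12), and the hNanog iPS cells lay between at 7.95, 8.08 and 8.09. Xlr4a has a near-identical copy, Xlr4b. The probe may read both, which was not tested. The 80 bases before each start show how alike the upstream regions are (RefSeq, GRCm38.p6, 5′ to 3′, chrX:73082508-73082587 minus strand and chrX:73214253-73214332 plus strand).
Xlr4a: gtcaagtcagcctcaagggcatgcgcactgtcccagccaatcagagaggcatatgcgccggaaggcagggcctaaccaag
Xlr4b: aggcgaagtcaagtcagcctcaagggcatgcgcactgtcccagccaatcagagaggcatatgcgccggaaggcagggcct
Over the full 250 bases before the starts, 239 of 257 aligned positions were identical (93.0%).

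Among probes without a single gene symbol, 104 were at least 2-fold higher and 29 lower. The largest difference of all was one of them, ILMN_2476405, at 12.54, 12.81 and 12.98 in mNanog iPS cells and 4.94, 5.67 and 4.97 in ES cells, where no array detected it. It measured 12.66, 12.57 and 12.52 in hNanog iPS and 13.09, 12.83 and 13.09 in NS cells, so the ES cells alone were at background.

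The largest falls included 7 genes that no mNanog iPS array detected. Krt42, a type I keratin, measured 5.04, 4.57 and 4.80 in mNanog iPS cells and 9.31, 9.58 and 9.49 in ES cells, at least 14.3-fold lower (adjusted p = 2.68e-11). The differences of its 3 tested probes ranged from -4.65 to -2.84. Dppa3, also called Stella, a maternal factor that guards methylation in the zygote, measured 4.50, 4.88 and 4.54 against 8.43, 8.64 and 8.65, at least 7.75-fold lower (adjusted p = 6.15e-11). Both were at background in hNanog iPS cells too, with Krt42 at 4.68, 4.73 and 4.62 and Dppa3 at 4.47, 4.39 and 4.47. Klk8, a secreted serine protease, fell by at least 5.75-fold (adjusted p = 1.54e-10). Lrrc15 measured 6.63, 6.61 and 6.58 against 10.11, 9.97 and 10.08, and was lower still in hNanog iPS cells at 4.62, 4.77 and 4.65.

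Other large falls were in genes detected in both groups. Grb7, an adaptor of receptor tyrosine kinases, measured 5.71, 5.90 and 5.78 against 8.79, 8.87 and 8.86. Igfbp2, which binds insulin-like growth factors, measured 8.52, 8.29 and 8.38 against 11.38, 11.41 and 11.36. Smad3, which carries TGF-beta and Nodal signals to the nucleus, measured 6.78, 6.95 and 6.94 against 9.23, 9.56 and 9.68, and 6.51, 6.73 and 6.75 in hNanog iPS cells. Tdrd12, a Tudor protein of the piRNA pathway, measured 7.77, 7.51 and 7.28 against 10.04, 10.15 and 10.13. In each of these the groups did not overlap. The other Smad3 probe fell by less (difference -1.29). Calb2 (difference -2.77), Ap3b2 (-2.73), Aldh3a1 (at least 5.12-fold lower), Pdlim4 (at least 3.75-fold) and Mobp (at least 4.64-fold) complete the 15 with Otx2 and Cdx2, which are described with their lineages. No mNanog iPS array detected the last 3 of those 5. One Ap3b2 probe of 3 did not fall, since its 3 probes ranged from -2.73 to 0.07. mNanog iPS differed from hNanog iPS cells in 8 of the 15, beside 16.7% of all probes. These 15 were chosen for low mNanog iPS levels, which bears on that count too.

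Of 18 core pluripotency genes tested, 3 rose and 4 fell, with a median of 0.01. Dnmt3l, the cofactor of de novo DNA methylation, measured 12.34, 12.34 and 12.30 in mNanog iPS cells and 9.10, 9.42 and 9.48 in ES cells (difference 2.99, SE 0.0999, adjusted p = 3.73e-10). Dppa2, a regulator of early embryonic genes, measured 7.13, 7.49 and 7.52 against 6.93, 6.12 and 6.15 (difference 0.98). Fgf4, the growth factor that ES cells use to prime themselves for differentiation, measured 7.86, 7.56 and 7.76 against 8.32, 8.36 and 8.23 (difference -0.58). Of 15 naive factors tested, 2 rose and 4 fell, with a median of -0.01. Besides Dppa3, Prdm14, a repressor of FGF signalling and methylation, measured 8.37, 8.40 and 7.99 against 8.83, 8.97 and 8.97 (difference -0.67). Gbx2, a STAT3 target, measured 11.27, 11.25 and 11.06 against 10.42, 10.59 and 10.61 (difference 0.66). Of 21 protein partners of Nanog tested, 1 rose and 6 fell, with a median of -0.16. Gatad2b, of the NuRD complex, led with -0.57 and Wdr5, of the MLL complexes, followed with -0.56.

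Several genes of fibroblasts and of the extracellular matrix were detected in the mNanog iPS cells and on no ES array. Decorin (Dcn), a collagen-binding proteoglycan, measured 8.18, 8.71 and 8.69 in mNanog iPS cells and 4.36, 4.37 and 4.41 in ES cells, at least 7.64-fold higher (adjusted p = 1.54e-10). Col1a1, the main chain of type I collagen, measured 8.07, 8.13 and 8.23 against 4.53, 4.67 and 4.43, at least 5.87-fold higher (adjusted p = 2.62e-11). Loxl1, a collagen and elastin cross-linking enzyme, measured 8.50, 8.28 and 8.17 against 4.51, 4.55 and 4.45. Thy1, a surface protein of fibroblasts, measured 6.78, 6.84 and 7.11 against 4.88, 4.58 and 4.66. None of these 4 was detected on any ES array. Of 15 fibroblast genes listed, 5 were tested and 4 of those rose, but the 4 passed the filter only through the iPS arrays and so had to differ.

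The wider list of mesenchymal and matrix genes had 28 of 39 members tested, of which 21 rose and 1 fell, with a median of 1.31. Of the 28, 9 were detected on no ES array and passed only through the iPS arrays, so the count and median describe the list and support no direction. Timp2 and Timp3, inhibitors of matrix proteases, measured 8.54, 8.72 and 8.64, and 8.67, 8.84 and 8.86, in mNanog iPS cells. In ES cells Timp2 measured 4.61, 4.57 and 4.46 and Timp3 4.85, 4.63 and 4.72, below detection. Lox, another cross-linking enzyme, rose at least 7.23-fold (adjusted p = 2.33e-10). Anxa2, a membrane-binding protein at the actin cortex that all 3 ES arrays detected, rose too. It measured 12.13, 12.12 and 12.05 against 8.65, 8.89 and 8.99 (difference 3.26, SE 0.187, adjusted p = 4.5e-08). S100a6, a calcium-binding protein, measured 9.29, 9.38 and 9.32 against 5.64, 5.67 and 5.40, with 1 ES array detecting it. Bgn, a proteoglycan related to Dcn and outside the list, rose at least 10.4-fold (adjusted p = 4.61e-09).

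The hNanog iPS cells did not show several of these matrix genes. In them Dcn measured 4.51, 4.44 and 4.53, Timp2 4.61, 4.49 and 4.53, and Lox 4.39, 4.37 and 4.38. Each was undetected there as in the ES cells, and mNanog was above hNanog iPS in the test for Dcn (adjusted p = 5.48e-10) and Timp2 (adjusted p = 3.51e-11). Both genes passed the filter only through the mNanog iPS arrays, so they had to be higher there. Loxl1 was detected on all 3 hNanog iPS arrays, and Anxa2 was higher there than in ES cells (difference 0.94), both at lower levels than in the mNanog iPS cells. Of the 28 mesenchymal and matrix genes tested, 17 were higher and 2 lower in mNanog than in hNanog iPS cells, beside 10.2% and 8.38% of all genes. The 9 that passed the filter only through the mNanog iPS arrays are in that count, so it supports no direction either. NS cells expressed some of them, with Timp3 at 10.57, 10.33 and 10.58 and Timp2 at 8.93, 9.05 and 8.93, but not others, with Dcn at 4.49, 4.44 and 4.61.

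Markers of fibroblasts or feeder cells were summed, a set that holds Dcn, Col1a1 and Thy1 from above. Of 10 such markers 5 had a named probe (Col1a1, Col3a1, Thy1, Dcn and Twist1). Their summed linear signal was 841 to 969 in mNanog iPS, 135 to 210 in ES, 163 to 214 in hNanog iPS and 172 to 188 in NS cells. Col3a1 was detected on 1 mNanog iPS array, at 5.64, and on none of the ES arrays, and Twist1 did not pass the test (difference 0.38, adjusted p = 0.532). Hprt, the purine salvage enzyme that the E14Tg2A line is known to lack, measured 8.64, 8.61 and 8.51 in mNanog iPS cells and 5.01, 4.71 and 4.86 in ES cells, where it was not detected. Hprt was at least 7.98-fold higher (difference 3.73, SE 0.126, adjusted p = 3.89e-10) and measured 4.85 on average in hNanog iPS cells. The part of other cells in the matrix result was not tested. In bulk RNA, fewer cells of a type and less RNA per cell cannot be told apart.

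**Figure D3:**
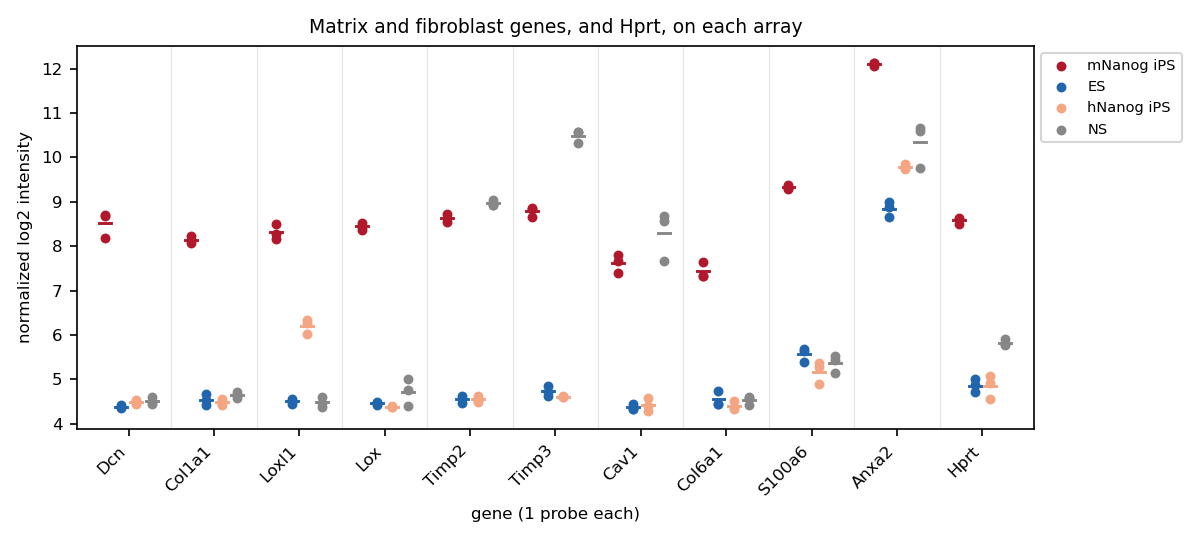
Normalized log2 intensity (y axis) of matrix and fibroblast genes and of Hprt (x axis) on each of the 12 arrays; points are arrays and short bars group means of 3. All mNanog iPS points lie above all ES and hNanog iPS points for each gene shown, while the NS mean is above the mNanog iPS mean for Timp2, Timp3 and Cav1.

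Neural stem cell identity genes were largely undetected in both groups. Of 10 neural stem markers with a named probe, 8 were detected on no mNanog iPS array and 7 on no ES array. Their summed linear signal was 328 to 342 in mNanog iPS and 271 to 384 in ES cells, against 80599 to 88344 in NS cells. In the longer neural stem list, 13 of 29 genes were tested, 7 rose and 2 fell, with a median of 0.51. Of those 7, 5 were detected on no ES array. These 5 passed the filter only through the mNanog iPS arrays and had to be higher, so the count and median support no direction. Nfix, a nuclear factor of neural progenitors, measured 8.30, 8.28 and 8.35 against 4.91, 4.70 and 4.53, with a mean of 6.89 in hNanog iPS and 11.05 in NS cells. Ptn, a secreted growth factor, measured 7.95, 7.86 and 7.89 against 4.47, 4.83 and 4.66, with a mean of 14.43 in NS cells. Cd44, the hyaluronan receptor, rose at least 2.91-fold, cyclin D2 (Ccnd2) at least 3.04-fold and Sox9 at least 2.20-fold. Their mNanog iPS means were 7.13, 7.19 and 6.73, below the NS means of 8.21, 13.29 and 13.04. Nes, an intermediate filament of neural progenitors, fell by 1.15 (difference -1.15, adjusted p = 0.00196), with 1 mNanog iPS and 2 ES arrays detecting it.

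Neuronal genes were few: 4 of 18 were tested and 2 rose, Nefm and Stmn3 (difference 1.32), with a median of 0.73. Of 7 astrocyte and oligodendrocyte genes tested, 2 rose and 3 fell, with a median of -0.06. Mbp, of myelin, fell at least 2.94-fold, Mt3 at least 1.55-fold, and Cnp by 0.70 (difference -0.70). Apoe, a lipid carrier, rose by 1.22 and Gja1, a gap junction protein, by 0.65.

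In the list of primed epiblast and Nodal genes, Otx2 and both Lefty genes fell and Nodal rose slightly. Otx2, the transcription factor that leads cells out of the naive state, measured 5.10, 5.44 and 5.76 in mNanog iPS cells and 8.50, 8.33 and 8.10 in ES cells (difference -2.88, SE 0.161, adjusted p = 3.44e-08). Lefty2, a secreted Nodal inhibitor induced by Nodal, measured 8.39, 8.06 and 8.36 against 10.49, 10.31 and 10.36 (difference -2.12). Lefty1, its paralog, measured 7.30, 7.37 and 7.07 against 9.03, 8.95 and 8.90 (difference -1.71). Nodal, the ligand, measured 11.22, 11.05 and 11.18 against 10.63, 10.66 and 10.90, a small rise of 0.42 (adjusted p = 0.00392). In all of these the groups did not overlap. The list had 9 of 20 genes tested, with 2 higher, 4 lower and a median of -0.13. Zic2 (difference -1.19) was the other that fell and Dnmt3b (difference 0.57), a de novo methyltransferase, the other that rose. The hNanog iPS means, 6.36 for Otx2, 8.76 for Lefty2 and 7.91 for Lefty1, lay between the groups, and mNanog was below hNanog iPS for all 3 (adjusted p = 0.00164, 0.00597 and 0.000793). Gsc, the single mesoderm list gene tested of 10, fell by 1.76 (difference -1.76).

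All 6 trophectoderm genes tested of 14 listed were called, 2 higher and 4 lower, with a median of -0.82. Cdx2, which specifies this lineage and also answers to Wnt signals, measured 5.30, 5.39 and 4.96 against 7.93, 7.58 and 7.89, at least 4.53-fold lower (adjusted p = 9.99e-09). Tfap2c, a transcription factor of trophoblast and germ cells, measured 9.97, 9.92 and 9.88 against 11.32, 11.21 and 11.38. Fgfr2, a receptor for FGF, fell by 1.16 (difference -1.16). Krt8, a keratin of simple epithelia, rose by 1.26 and Tead4, a Hippo pathway factor, by 0.60. Of 7 primitive endoderm genes tested of 18, 5 rose and 1 fell, with a median of 0.86. The members that rose are matrix components, a collagen chaperone and a secreted activin inhibitor: Col4a1 (at least 5.01-fold), Col4a2 (at least 2.49-fold), Serpinh1 (difference 1.65), Fst (0.86) and Lamc1 (0.70). The collagen genes were detected on no ES array, so they passed only through the mNanog iPS arrays and had to be higher. Lama1 fell (difference -0.67). The lineage regulators Gata4 and Sox17 had no named probe, so their levels are not known here. Gata6 was detected on 1 mNanog iPS array and on no ES array, too few to be tested.

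Targets of the signals that the medium sets were compared next. Of 10 ERK targets tested of 17, 4 rose and none fell at the threshold, with a median of 0.22. Etv4, an ETS factor, measured 9.08, 9.04 and 9.12 against 6.17, 5.87 and 6.47 (difference 2.91, SE 0.138, adjusted p = 8.05e-09). Phlda1 measured 7.07, 7.71 and 7.84 against 5.80, 5.49 and 4.66 (difference 2.22). Fos, an immediate early factor, rose at least 2.72-fold and Ier3 rose by 0.82. All 4 were higher than in hNanog iPS cells too. Of 8 Wnt targets tested, 3 rose and 2 fell, with a median of -0.04. Bmp4, a signalling ligand, measured 10.61, 10.60 and 10.82 against 9.0, 8.95 and 8.91 (difference 1.72), opposite to Cdx2.

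Of 19 LIF and STAT3 genes tested, 8 rose and 3 fell, with a median of 0.22. Cish, a feedback inhibitor of STAT signalling, fell at least 2.17-fold and Pim1, a kinase, by 0.80 (difference -0.80). Socs3, the feedback inhibitor of the LIF receptor, rose by 0.75, the kinase Jak1 by 0.96 and the receptor chain Osmr at least 1.18-fold. Of 7 FGF and receptor genes tested, 1 rose and 4 fell, with a median of -0.58. Fgf17 measured 5.41, 5.11 and 5.53 against 7.74, 7.94 and 7.73 (difference -2.45). Kit, the stem cell factor receptor, measured 10.34, 10.39 and 10.50 against 12.25, 12.34 and 12.41 (difference -1.93, SE 0.0842, adjusted p = 4.14e-09). Egfr rose by 0.62.

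**Figure D4:**
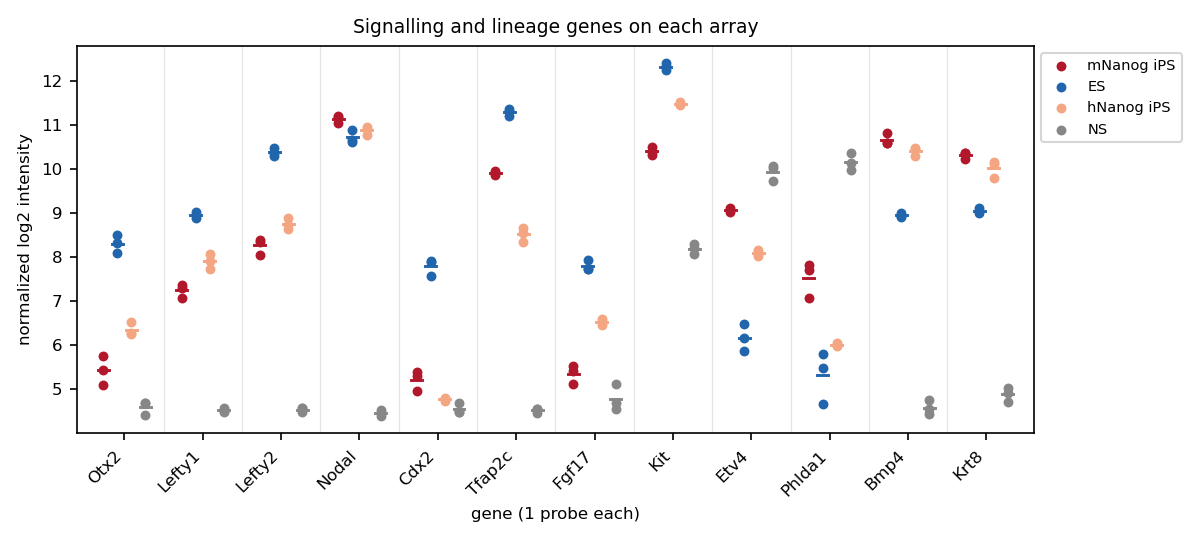
Normalized log2 intensity (y axis) of signalling and lineage genes (x axis) on each of the 12 arrays; points are arrays and short bars group means of 3. Otx2, Lefty1, Lefty2, Cdx2, Fgf17 and Kit lie lower in mNanog iPS than in ES cells, and Etv4, Phlda1, Bmp4 and Krt8 higher, with no overlap.

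Chromatin genes moved in selected members. Of 10 genes of DNA methylation tested, 4 rose and 2 fell, with a median of 0.15. Mbd2, a reader of methylated DNA, measured 7.72, 7.83 and 7.76 against an ES mean of 9.95 (difference -2.18, SE 0.0935, adjusted p = 3.4e-09). Gadd45b rose by 0.72, Gadd45a by 0.56, and Dnmt1, the maintenance enzyme, fell slightly (difference -0.38). Of 12 imprinted genes tested of 28, 6 rose and 5 fell, with a median of 0.25. Dlk1, a paternally expressed growth regulator, measured 6.94, 7.33 and 7.12 against 4.96, 4.80 and 4.56, at least 2.91-fold higher. Igf2, the paternally expressed growth factor, measured 8.29, 8.37 and 8.25 against 6.29, 6.87 and 6.51 (difference 1.75), and its receptor Igf2r rose by 1.10. Gnas rose by 1.17, Impact by 1.15, and the maternally expressed Phlda2 fell by 1.11 (difference -1.11). Of 19 Polycomb genes tested, 3 rose (Cbx8 by 1.41, Kdm2b by 0.67 and Rbbp7 by 0.38) and none fell, with a median of 0.07.

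Of 18 BAF remodelling complex genes tested, 2 rose and 4 fell, with a median of -0.14. Smarca2, the ATPase of BAF that ES cells use little, measured 7.13, 7.13 and 6.98 against 5.67, 5.86 and 5.89 (difference 1.27). Arid2 (difference -1.0) and Smarcd3 (difference -0.82) fell. Of 5 germline genes tested of 22, 2 rose and 1 fell, with a median of 0.25, led by the testis tubulin Tuba3a (1.48). From the list of the 2-cell stage 1 gene of 13 was tested and was not called.

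Immune surface genes split. Of 10 MHC class I and interferon genes tested, 3 rose and 4 fell, with a median of -0.28. B2m, the light chain of MHC class I, measured 11.50, 11.58 and 11.49 against 10.08, 9.99 and 9.93 (difference 1.53), and the heavy chain H2-D1 rose by 1.34. Ifitm3 and Ifitm1, membrane proteins expressed in ES and germ cells, fell (differences -1.87 and -1.59), as did H2-T23 (difference -1.15). Of 9 junction genes of epithelia tested, 2 rose and 3 fell, with a median of 0.10. The tight junction genes Cldn6 (at least 2.31-fold) and Cldn3 (difference -0.92) fell and the desmosomal Dsg2 rose by 0.71. In the Notch list of 11 tested, 4 rose and 4 fell, with a median of -0.19. Notch4 (difference -1.41), Id4 (-1.19) and Hey1 (-1.03) fell, while Id2 rose by 0.80 and Id3 by 0.69. Of 3 blood and endothelial genes tested 1 rose (Laptm5, 0.82) and 1 fell (Tek, -1.19), with a median of 0.08. Of 4 metallothionein genes tested 2 fell, with a median of -0.23.

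Of 25 cell cycle genes tested, 3 rose and 9 fell, with a median of -0.21. Those that fell include DNA replication genes, such as Mcm6 (difference -0.66), Rrm2 (-0.65) and Mcm5 (-0.53), while Ccnd2 and the inhibitor Cdkn1a (0.59) rose. Of 25 respiratory chain genes tested, none rose and 6 fell, with a median of -0.07 and a lowest difference of -0.54 for Cox7a2. Of 21 genes of glycolysis and hypoxia 1 rose (Pfkm, 1.07) and 3 fell, with a median of -0.02. In the ATF4 amino acid response, 4 of 19 rose and 8 fell, with a median of -0.11. The serine synthesis enzymes Phgdh (difference -0.96) and Psat1 (-0.90) fell, whereas Ddit3 (1.13), a stress factor, and the lipoprotein receptor Vldlr (1.59) rose. Of 17 cholesterol synthesis genes, 6 rose and 2 fell, with a median of 0.11, from Ebp (1.02) to Dhcr7 (-0.70). Of 10 fatty acid synthesis genes, 1 rose and 3 fell, with a median of -0.28, led by Fads2 (-0.93).

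Of 13 p53 targets tested, 4 rose and 4 fell, with a median of -0.13. Pltp (difference -0.80) fell and Trp53inp1 (0.62) rose. Tnfrsf10b is counted as a fall by its brightest probe (difference -1.38), but 2 of its 3 probes rose, by up to 1.28. In the Myc network 1 of 12 rose and 2 fell, with a median of -0.10. They were Mxd4 (1.45), Mycl (-0.98) and Mlxip (-0.62). Of 7 genes of the Lin28 and let-7 list none rose and 2 fell, with a median of -0.14. Of 6 ribosomal protein paralogs 1 fell (Rpl3l, -0.82), with a median of -0.06. All 3 sex-linked genes tested fell, with a median of -0.53, led by Eif2s3y of the Y chromosome at 9.28, 9.66 and 9.79 against 10.63, 10.35 and 10.03 (difference -0.76). Of 9 housekeeping genes, 3 rose and 1 fell, with a median of 0.04. Besides Hprt and B2m these were Gusb (1.02) and Rplp0 (-1.18).

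**Figure D5:**
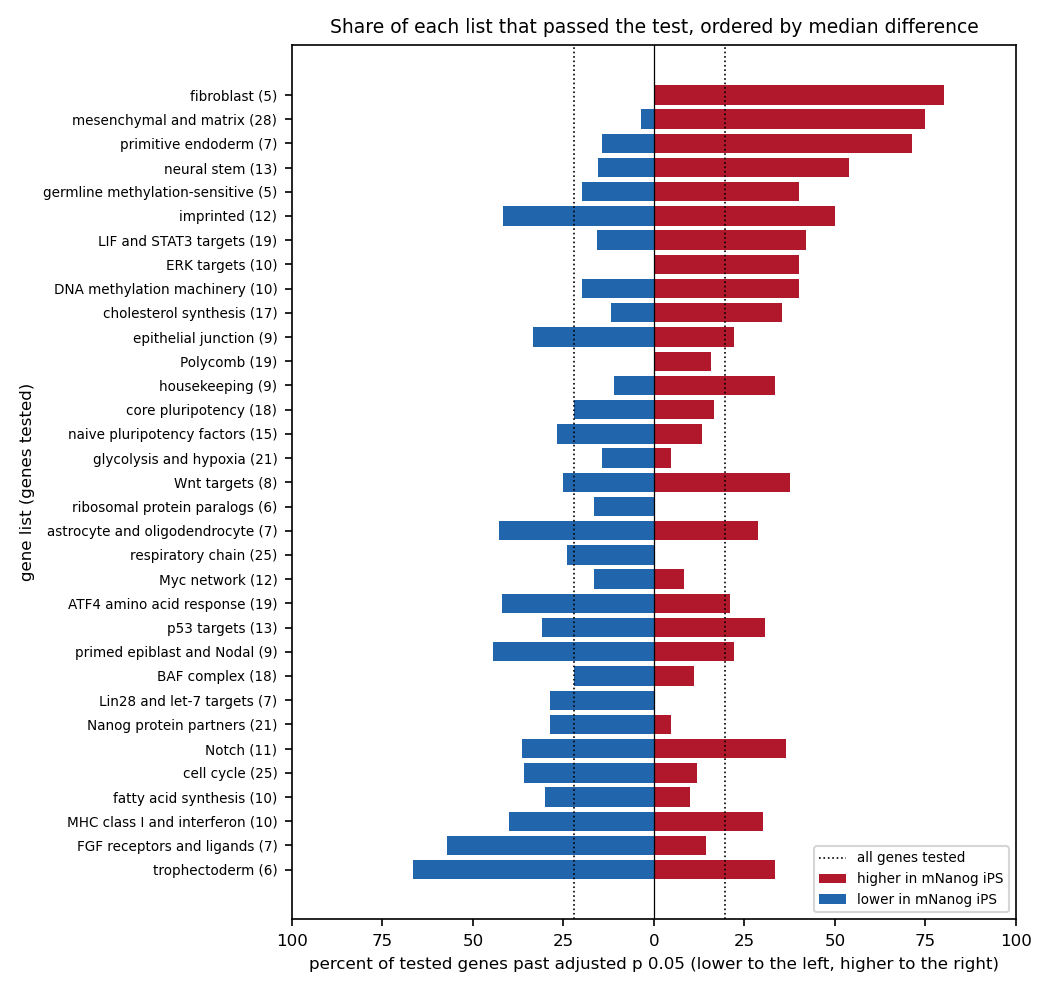
Percent of tested genes past an adjusted p of 0.05 (x axis, lower in mNanog iPS to the left and higher to the right) for each gene list with at least 5 genes tested (y axis, number tested in parentheses), ordered by median difference. Dotted lines mark all genes tested, 22.2% lower and 19.6% higher. The fibroblast list (80.0% higher) and the mesenchymal and matrix list (75.0% higher) stand at the top. In them 4 of 5 and 9 of 28 genes were tested only through the mNanog iPS arrays. The same holds for 2 of 7 primitive endoderm and 5 of 13 neural stem genes.

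Detection in the hNanog iPS and NS cells was counted for the probes that changed at least 2-fold. Of the 693 probes at least 2-fold higher, 14.1% were detected on no hNanog iPS array and 34.2% on no NS array. Over all tested probes these shares were 2.31% and 9.01%. Of the 382 at least 2-fold lower, 16.2% and 40.1% were detected on none. Among the 693, 237 were detected on no ES array, and among the 382, 98 on no mNanog iPS array. Those probes passed the filter through a single group, so the higher shares are partly set by the filter.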

How the data were processed

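RNA from 12 samples was amplified, labelled with biotin and hybridised to bead arrays, per the labels' protocols. The authors deposited linear intensity, the average bead signal of each probe (45281 in all), without normalization. Each signal has a detection p-value in the same deposited file. A second deposited table holds log2 values with the same quantiles in every column; its scale was judged from the values, and it served only as an alternative. The sources used here name neither the scanner software nor a background method.

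With limma 3.58.1 in R 4.3.3, neqc estimated background through the detection values (offset 16), quantile normalized the 12 arrays and took log2. The fit had a mean for each of the 4 groups over 12 arrays (8 residual degrees of freedom), with eBayes and Benjamini-Hochberg adjustment over the 14800 probes. Precision is limited by the number of arrays. Probe names came from the platform annotation, with symbols brought up to date through RefSeq; 1973 tested probes had several symbols or none. Promoter sequences came from RefSeq, and lists were handled in Python 3.11.15.

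Named were Nanog and the reprogramming factors, the 15 largest differences each way with groups that do not overlap, and up to 6 members of each of 39 gene lists, largest first. Members whose call changed when 1 array was left out were not named, a restriction added after the values were seen, and the gene families in the closing section were chosen after their values were seen. The members and lists were chosen with earlier results of these data known. Each list gene was represented by its brightest probe on average, and each of the 15 by the probe with the largest difference. Of 56 named genes with at least 2 tested probes, 2 were called in both directions, Nanog and Tnfrsf10b. Replicate numbers were checked as pairs: deviations of equally numbered arrays correlated at -0.501, 0.13 and -0.399. The pairs at -0.501 and -0.399 each joined a brighter with a dimmer array, so the check cannot decide whether the numbers pair. The test was checked on simulated data. Alternatives covered background, normalization, filter, fit, brightness and each array left out.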

Additional observations from a re-analysis of the deposited data

Results flagged for a closer look

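For 5 named probes the mNanog and the hNanog iPS cells differed from the same ES arrays with opposite signs, and differed from each other by their own test. On Nanog ILMN_1245732 the difference from ES was 0.69 in mNanog and -4.54 in hNanog iPS cells, and mNanog minus hNanog was 5.23 (adjusted p = 3.97e-11). Egfr differed from ES by 0.62 and -0.35 (mNanog minus hNanog 0.97). Dhcr7, a late enzyme of cholesterol synthesis, ran the other way, at -0.70 and 0.31 (mNanog minus hNanog -1.02). For S100a6 (mNanog minus hNanog 4.15) and Id2 (mNanog minus hNanog 1.29) no hNanog iPS array and only 1 ES array detected the probe. Their signs on the hNanog side, between means of 5.17 and 5.57 for S100a6 and of 4.80 and 5.29 for Id2, therefore show no opposite change, and the differences between the iPS groups are against an undetected level.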

How the results depend on the processing

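The count of called probes, 5829, moved by more than 1.5 times with median scaling (949) and with the brighter arrays alone (3789, 1 against 1, the lone samples assumed to vary like the other groups). The 2-fold count, 1075, moved without background correction (438), with an offset of 50 (628), with the authors' processed values (280) and with probes detected on all 6 arrays (529, fewer probes tested). Leaving out each array in turn gave 4927 to 5302 and 1074 to 1131. Fitting the 6 compared arrays alone gave 5319 and 1075. With the replicate block 5457 probes were called, and the block changed no named call; with brightness as a block there were 6882, and with the dimmer arrays alone 4207. No named difference changed sign under any of the 22 alternatives run. List members were named only if their call held with each array left out, so that stability was partly built in. Nanog ILMN_1245732 missed the threshold with median scaling (0.61). Over 171 other named probes, 66 fell below the threshold with median scaling, 12 on the brighter and 5 on the dimmer arrays alone and 1 with cyclic loess. The causes were not tested. The slide as a block was not run, since the files used here do not give it. Dim probes limit the comparison, because a fold against a group below detection is only a bound.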

Other observations

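Gene families outside the lists, chosen after their values were seen and so given as values alone, also differed. Of 11 Hox genes tested, 8 rose and 1 fell, 7 of the 11 being detected on no ES array and so tested only through the iPS arrays. Hoxd4, a trunk patterning factor, measured 7.07, 7.20 and 7.34 in mNanog iPS cells and 4.64, 4.54 and 4.44 in ES cells, with a mean of 7.10 in hNanog iPS cells. Hoxd8 measured 7.71, 7.74 and 7.87 against 5.12, 5.22 and 5.08, with 7.64 in hNanog iPS cells. Both iPS groups thus lay above the ES cells. All 3 Rhox genes tested, homeobox genes of the X chromosome, fell: Rhox5 measured 9.49, 9.46 and 9.60 against 11.82, 11.65 and 11.63, and Rhox9 6.05, 5.61 and 6.03 against 6.97, 6.98 and 7.07. All 5 kallikrein proteases tested were detected on no mNanog iPS array and passed the filter only through the ES arrays, so they had to fall, such as Klk1 at 4.52, 4.70 and 4.97 against 7.38, 6.94 and 6.83.

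All 4 MHC class II genes tested rose, beside 19.6% of all genes. No ES array detected 2 of them, which passed the filter only through the mNanog iPS arrays and so had to be higher. The others were detected on 1 ES array each, so the count supports no direction. H2-Eb1, an antigen-presenting chain, measured 7.85, 7.53 and 7.45 in mNanog iPS and 5.01, 5.60 and 4.82 in ES cells, with a mean of 4.95 in hNanog iPS cells. H2-DMb2, which helps load peptides, measured 7.69, 7.28 and 7.22 against 4.74, 4.68 and 4.67. Among collagen genes, 8 of 11 rose and 1 fell. Of the 11, 6 were detected on no ES array and passed only through the mNanog iPS arrays, so this count supports no direction either.

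In the Pramel family 2 of 5 genes rose and 2 fell. Pramel14 measured 10.47, 10.51 and 10.44 against 7.37, 7.46 and 7.42, and Pramel30 measured 9.58, 9.65 and 9.65 against 6.80, 6.23 and 6.67. Both differed by 3.06, and since the copies are nearly identical the probes may read more than one copy. The 80 bases before each start are printed (RefSeq, GRCm38.p6, 5′ to 3′, chr4:143994370-143994449 minus strand and chr4:144330169-144330248 plus strand).
Pramel14: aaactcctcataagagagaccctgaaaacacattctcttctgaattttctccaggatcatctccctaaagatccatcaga
Pramel30: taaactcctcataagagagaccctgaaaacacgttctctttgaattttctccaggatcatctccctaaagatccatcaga
Over the full 250 bases, 244 of 251 aligned positions were identical (97.2%).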
